A study of Mus musculus with 4 samples.

Results

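MicroRNA genes and small nucleolar RNA (snoRNA) genes were followed through the RNA-seq libraries of GRK6 knockout (GRK6-/-) and wild-type (WT) mouse hematopoietic progenitors. The members were all rows whose gene symbol begins with the name of a microRNA (Mir and a number, or Mirlet7) or of a snoRNA (Snora or Snord and a number). They were therefore chosen on a measured value, since a gene is listed in a library only where it has an FPKM value (fragments scaled by transcript length and by the mapped fragments of the library). The rule found 36 symbols of 12750, and 57 rows of 42021. WT HSC held 16 of its 10577 rows, the library labelled GRK6-/- HSC 18 of 11060, WT CLP 11 of 10056, and the library labelled GRK6-/- CLP 12 of 10328. No deposited row had an FPKM of 0, and a gene without a row was set to 0, the reason for its absence being unknown from the files.

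Each group was 1 library, so no difference below has a replicate check and none was tested. All mice were C57BL/6 littermates from GRK6 heterozygote crosses, given as 8–12 weeks old unless specified otherwise. GRK6, a kinase of activated G-protein-coupled receptors, was either intact (WT) or deleted in the germline by removal of exons 3–9 (GRK6-/-), and no group was treated. HSC were bone marrow cells sorted as Lin-c-kit+sca-1+, a gate that also holds multipotent progenitors, and CLP were sorted as Lin-c-kit+sca-1+Il-7Ra+. A library pooled 13 to 15 cells from 3 to 4 mice, each amplified on its own from a poly(dT) primer by 20 and then 10 cycles of PCR.

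MicroRNAs are short RNAs that guide Argonaute proteins to messenger RNAs, mainly through pairing of the seed near their 5′ end. They are cut from hairpins within longer primary transcripts by Drosha and then Dicer1. SnoRNAs guide chemical changes of ribosomal and spliceosomal RNA, with C/D box snoRNAs directing 2′-O-methylation and H/ACA box snoRNAs directing pseudouridylation, and in mammals most are processed from introns of host genes. In blood formation, microRNAs such as those of the miR-17-92 cluster are known to act in early lymphoid cells. Mature microRNAs and snoRNAs carry no poly(A) tail, whereas their primary and host transcripts generally do, and a poly(dT) primer is designed to copy the latter.

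Among the 36 symbols, 20 began with a microRNA and 16 with a snoRNA, of which 12 were H/ACA and 4 C/D. Only 15 symbols named a single gene, hereafter an own row: 5 microRNA genes (one of them Mir17hg, the host transcript of the miR-17-92 cluster) and 10 snoRNA genes. The other 21 were joint symbols, in which the small RNA shares its row and its FPKM with a longer gene, as in "Snora24,Snhg8". A joint FPKM cannot be divided between the small RNA and the longer gene.

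The mature sequences of the microRNAs on which the following results turn are given first, because the rows carry names of microRNAs while the library preparation copies polyadenylated RNA. They come from RefSeq (GRCm38.p6) and are written 5′ to 3′ with the seed, bases 2 to 8, in capitals. miR-703 has the highest row of every library, miR-1931 the highest row found in a single library among the microRNAs with their own row, and the other 4 come from Mir17hg, Mir221 and Mir301.
miR-703: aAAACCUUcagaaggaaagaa
miR-1931: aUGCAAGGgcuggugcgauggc
miR-92a-3p: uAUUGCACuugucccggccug
miR-19b-3p: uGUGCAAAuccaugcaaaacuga
miR-221-3p: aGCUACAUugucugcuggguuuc
miR-301a-3p: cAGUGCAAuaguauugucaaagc
Of the 20 microRNAs named in member rows, 18 had an entry, with 30 mature sequences and 30 distinct seeds. No seed was shared by the named microRNAs with an entry. MicroRNAs that lie within the locus of a row without being named in its symbol were not compared.

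The snoRNA sequences below are the loci of 5 H/ACA snoRNAs with an own row, read from mm9 on the annotated strand, with the ACA box in capitals. All 5 carry this box near their end. These loci, between 105 and 139 bp, are among the shortest of the files and have some of the highest FPKM. Snora44, with a locus of 117 bp and 914 FPKM in the library labelled GRK6-/- HSC, is not printed.
Snora33 (chr10:23505153-23505257, minus strand): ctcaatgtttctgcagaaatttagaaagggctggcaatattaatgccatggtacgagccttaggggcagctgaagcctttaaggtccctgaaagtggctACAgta
Snora70 (chrX:71517831-71517959, plus strand): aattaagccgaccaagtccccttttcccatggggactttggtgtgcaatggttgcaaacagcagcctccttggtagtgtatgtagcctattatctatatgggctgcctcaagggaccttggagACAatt
Snora69 (chrX:34622907-34623028, minus strand): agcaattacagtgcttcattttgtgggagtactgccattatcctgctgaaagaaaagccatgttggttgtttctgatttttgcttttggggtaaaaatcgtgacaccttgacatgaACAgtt
Snora7a (chr6:115757993-115758121, minus strand): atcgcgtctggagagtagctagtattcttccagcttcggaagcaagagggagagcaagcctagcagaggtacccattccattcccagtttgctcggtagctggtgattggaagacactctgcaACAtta
Snora43 (chr2:26493367-26493505, minus strand): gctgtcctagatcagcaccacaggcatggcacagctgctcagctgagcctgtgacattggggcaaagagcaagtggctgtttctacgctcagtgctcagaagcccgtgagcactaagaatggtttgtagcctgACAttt
Of 8 H/ACA loci with an own row that were read, 6 had ACA followed by 3 bases at their end, which is where mature H/ACA snoRNAs carry this box. The loci of Snora44 and Snora81 did not have it there.

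Whole-library facts that touch these rows were as follows. Grk6 itself had 42.7 FPKM in WT HSC, 89.4 in the library labelled GRK6-/- HSC, 26.9 in WT CLP and 57.6 in the library labelled GRK6-/- CLP. It was thus not lower under the knockout label, and since a value per gene does not separate the deleted exons from the others, it does not check the labels. Il7r, the receptor used to gate CLP, had no row in WT HSC, 1.08 in the library labelled GRK6-/- HSC, 120 in WT CLP and 75.1 in the library labelled GRK6-/- CLP. Of the 9 HSC and LSK markers, 8 had a row in WT HSC (all but Procr) and 9 in each other library, with a sum between 1584 and 2279 that came mostly from a joint row in which Ly6a shares its value with other genes. Slamf1, a marker of long-term HSC, had 8.91 in WT HSC, 0.689 in the library labelled GRK6-/- HSC, 0.172 in WT CLP and 0.136 in the library labelled GRK6-/- CLP. Summed FPKM of the 7 erythroid markers was between 10.4 and 116 in 3 libraries and 17459 in the library labelled GRK6-/- CLP, mostly from the globin gene Hba-a2 (Hba-a1, Hbb-b1 and Hbb-b2 had no row in the files used here). Summed FPKM of the 7 B lineage markers was between 35.5 and 115 in 3 libraries and 968 in that same one. Pax5 had no row in any library. The 5 CLP markers summed to 118 to 168 in the HSC and 859 to 1293 in the CLP libraries, the 6 myeloid markers to 4822 to 12297, the 3 megakaryocyte markers to 10.9 to 149 and the 5 T lineage markers to 0.257 to 17.7. The part of these cell markers in the values of small RNA rows was not tested. The files used here hold no read counts, and the spacing of the lowest FPKM values of genes with a single transcript gave an estimate of 2780000 to 4240000 fragments per library. The read number stated in the study's methods for each lineage is larger, and the fragment numbers given below rise in proportion to the depth assumed.

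Mir703 was the only member with a row in all 4 libraries, and it had the highest FPKM of all genes in each. It had 51857 FPKM in WT HSC, 79940 in the library labelled GRK6-/- HSC, 48114 in WT CLP and 39855 in the library labelled GRK6-/- CLP. The library labelled GRK6-/- HSC was the highest and the one labelled GRK6-/- CLP the lowest, and on the log2 scale of FPKM + 1 the genotype differences were 0.62 in HSC and -0.27 in CLP. Only the difference between the libraries labelled GRK6-/- CLP and GRK6-/- HSC, at -1.0, reached 2-fold. The listed locus is 109 bp long, at chr5:98904575-98904683 of mm9 on the minus strand, in an intron of 1700007G11Rik, which is annotated on the opposite strand. If FPKM was formed with that length, the row held 0.565%, 0.871%, 0.524% and 0.434% of all fragments in the same order of libraries.

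The Mir703 locus is not unique in the genome. A search of mm9 with blastn found 7 other places that match at least 90% of its length with at least 90% identity, and 1 of them lies in an exon of a longer gene. That copy, at chr9:78326335-78326442, is 98.2% identical over an alignment of 109 bp with 1 mismatch and 1 gap, and it lies in an untranslated part of an exon of Eef1a1, which encodes the elongation factor that brings aminoacyl-tRNA to the ribosome. Besides Eef1a1, the GENCODE annotation holds a gene named mmu-mir-703 that overlaps this copy. The mature miR-703 sequence printed above was found there without a change on the strand of Eef1a1, and 18 times in mm9 over both strands. Because the row shares its sequence with that exon, the Mir703 values are uncertain as values of the microRNA gene. Eef1a1 had its own row, with 2756 FPKM in WT HSC, 4789 in the library labelled GRK6-/- HSC, 4231 in WT CLP and 3367 in the library labelled GRK6-/- CLP, which placed it 28th, 12th, 11th and 15th among the rows. The Mir703 row was 18.8, 16.7, 11.4 and 11.8 times as high as the Eef1a1 row. The highest Eef1a1 value and the highest Mir703 value fell in the same library, and the order of the other 3 differed. How many fragments of the Mir703 row came from Eef1a1 was not tested, since the files used here hold no reads.

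**Figure D1:**
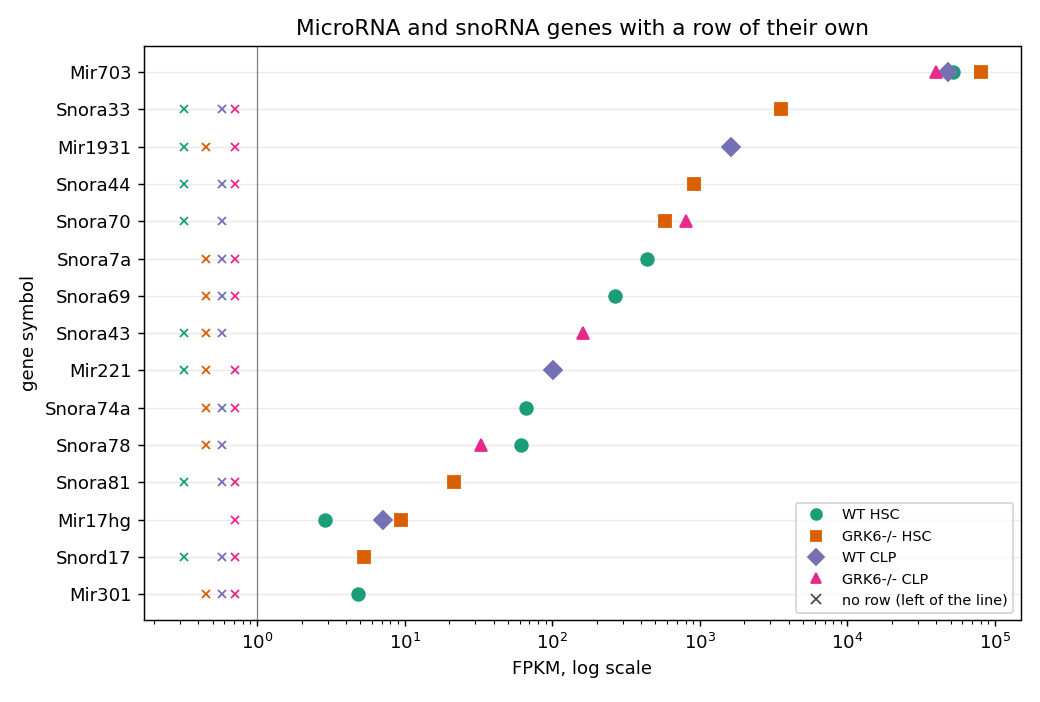
FPKM (log scale) of the 15 microRNA and snoRNA genes with a row of their own, 1 symbol per library, with crosses left of the line for libraries without a row. Mir703 has 4 values between 39855 and 79940, Mir17hg has 3, Snora70 and Snora78 have 2 each, and the other 11 genes have 1.

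The 4 other microRNA genes with an own row had between 1 and 3 rows. Mir17hg, the transcript from which the miR-17-92 microRNAs are cut, had 2.89 FPKM in WT HSC, 9.38 in the library labelled GRK6-/- HSC and 7.10 in WT CLP. In the library labelled GRK6-/- CLP it was listed as "Mir92-1,Mir19b-1,Mir17hg" with 12.4, so the transcript had a row in every library. Its locus spanned 3804 bp in the library labelled GRK6-/- HSC and 2424 bp in WT HSC, WT CLP and the library labelled GRK6-/- CLP. Both GRK6-/- labels were above WT of the same population, in HSC over loci of unlike length. With the names joined, the log2 difference was 1.42 in HSC and 0.73 in CLP. Both named hairpins, Mir92-1 and Mir19b-1, lie in the exon of Mir17hg.

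Mir1931 was listed in WT CLP alone, at 1635 FPKM, the 47th highest of that library. Its locus is the 119 bp hairpin itself, in an intron of Cdk17, a cyclin-dependent kinase gene. Cdk17 had 18.2, 20.6, 18 and 33.3 in WT HSC, the library labelled GRK6-/- HSC, WT CLP and the library labelled GRK6-/- CLP. The microRNA row was 90.8 times its host in WT CLP, where Cdk17 was at its lowest, and no other copy of the hairpin was found at the identity used for Mir703. Mir301 had a row only in WT HSC, at 4.82, close to the 5.34 of Fam33a, whose intron holds it. Its locus in the file spans 1074 bp and its hairpin only 86 bp, so most of this row is not the hairpin. Mir221 was also listed in WT CLP alone, at 102, with a locus of 21863 bp around a hairpin of 95 bp, and no longer annotated gene contains it. The microRNA rows therefore mixed loci as short as a hairpin with loci as long as a primary transcript.

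Of the microRNAs long studied in blood cells that were looked up (16 genes, among them Mir142, Mir155, Mir223, Mir150 and Mir126, and the let-7 family), none had an own row. Mir92-1 was the only one named at all, in the joint row described above, and no symbol began with Mirlet7. The GENCODE annotation used here for positions holds 1577 microRNA and 1552 snoRNA genes, and the rows name few of either kind. The annotation behind the deposited rows may hold other numbers, which were not counted.

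Of the 10 snoRNA genes with an own row, 9 were H/ACA and 1, Snord17, was C/D. The highest was Snora33, with 3537 in the library labelled GRK6-/- HSC and no row in the others. It lies in an intron of Rps12, a gene of the small ribosomal subunit. Rps12 had 445, 709, 611 and 257 in WT HSC, the library labelled GRK6-/- HSC, WT CLP and the library labelled GRK6-/- CLP, so the snoRNA row appeared where the host was highest and was 4.99 times its level. Snora44 also had a row only in the library labelled GRK6-/- HSC, at 914, which was 5.48 times the 167 of its host Snhg12. Snhg12, a noncoding host of several snoRNAs, was higher in WT HSC, at 248, where Snora44 had no row. Both snoRNAs have 1 further copy in mm9, at 90.5% identity for Snora33 and 90.6% for Snora44.

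Snora70, in Rpl10, a gene of the large ribosomal subunit, was the only H/ACA gene with an own row in both libraries labelled GRK6-/- and in neither WT library. It had 580 in the library labelled GRK6-/- HSC and 809 in the one labelled GRK6-/- CLP. Rpl10 had rows in all 4 libraries, with 775 in WT HSC, 829 in the library labelled GRK6-/- HSC, 683 in WT CLP and 676 in the library labelled GRK6-/- CLP. The host range was narrow, and the CLP library with the snoRNA row was just below the one without. Snora70 has 2 further copies in mm9, at 92.2% and 90.1% identity.

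Snora7a, Snora69 and Snora74a had rows only in WT HSC, at 435, 265 and 66.6. Their hosts are Rpl32 and Rpl39, both of the large ribosomal subunit, and the noncoding Snhg4. Rpl32 ranged from 5459 to 10180 over the libraries and Rpl39 from 415 to 1758, with the highest value of each in the library labelled GRK6-/- HSC and not where the snoRNA had its row. Snhg4 was highest in WT HSC, at 89.2 against 37.1 to 65.7 elsewhere, which is the library with the Snora74a row. Snora78 had 61.6 in WT HSC and 32.8 in the library labelled GRK6-/- CLP. Its host Snhg9 had 26.8 in WT HSC and 11.7 in the library labelled GRK6-/- HSC, with no row in either CLP library, so in 1 library the snoRNA was listed without its host.

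Snora43 had an own row only in the library labelled GRK6-/- CLP, at 161, beside 116 for its host Snhg7. In the other 3 libraries the host was listed as "Snhg7,Snora43", at 154, 86.1 and 174 in WT HSC, the library labelled GRK6-/- HSC and WT CLP. Snora43 therefore did not appear in one library alone. It was reported apart from its host in one library and together with it in 3. Snora81, in Eif4a2, a translation initiation helicase gene, had 21.5 and Snord17, in Snx5, a sorting nexin gene, had 5.26, both only in the library labelled GRK6-/- HSC. Snora81 has a 98.8% identical copy on chromosome 15, so its row is uncertain.

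Over the 12 own genes with a host, the host was at its highest in a library with the small RNA row for 5. No number to be met without any relation to host level was worked out, so this count is a description. Over the 13 own rows beside a host row, the Spearman correlation of the 2 FPKM values was 0.45, and 0.62 over the 11 snoRNA rows. These correlations are descriptions across rows, several of which share a library and 2 of which share a gene. The ratio of small RNA to host ran from 0.0384 for Snord17 in Snx5 to 90.8 for Mir1931 in Cdk17.

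**Figure D2:**
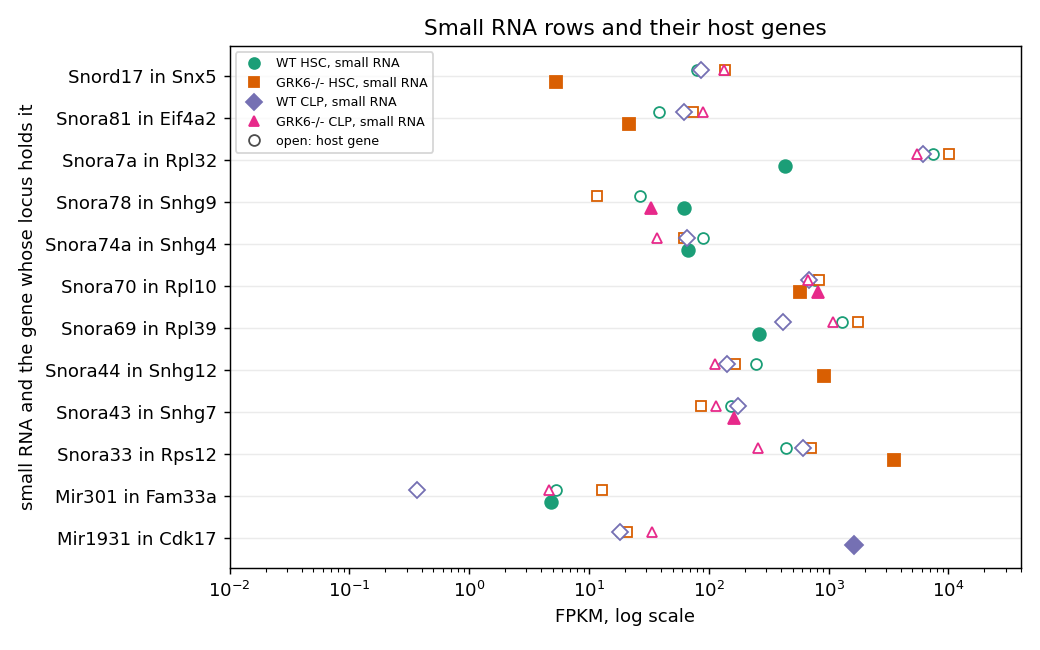
FPKM (log scale) of 12 small RNA genes (filled) and of the host gene whose locus holds them (open), with 1 symbol per library. Hosts such as Rpl10 and Cdk17 have a row in all 4 libraries while the small RNA has 1 or 2, and the small RNA is above its host for Mir1931, Snora33, Snora44, Snora43 and Snora78 and below it for Mir301, Snora74a, Snora7a, Snora69, Snora81 and Snord17.

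FPKM fell with the length of the locus. Over the 22 own rows the Spearman correlation of FPKM with locus length was -0.90, and without the 4 rows of Mir703 it was -0.85 over 18. It was -0.91 over the 12 snoRNA rows, which run from 105 bp and 3537 FPKM (Snora33) to 221 bp and 5.26 FPKM (Snord17), and -0.75 over the 10 microRNA rows. Over all 57 member rows it was -0.60, and over all 42021 rows of the files -0.25. Rows share libraries and genes, and length is part of FPKM, so these values describe the files and were not tested. Per the study's methods the reads were nearly as long as the shortest of these loci, and the length used for the division is not given in the sources used here.

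Very short loci were rare. Only 40 rows in the 4 files had a locus under 300 bp, and 17 of them, from 12 symbols, were members, with a median FPKM of 580 and a range from 5.26 to 79940. The other 23 came from 2 genes, with a median of 4.93 and a highest value of 86.0. The median over all rows was 10.9, and the 22 own rows had a median of 213. If FPKM was formed with the locus length and the depth estimated above, the Snora33 row stood for about 1410 fragments, Mir1931 for 825, Snora70 for 284 and 290, Snora78 for 28.4 and 14.3, Snora81 for 13.4 and Snord17 for 4.41. At that depth a single fragment in the Snora33 locus is worth 2.51 FPKM. These numbers rest on that assumption about length and cover PCR copies as well as molecules.

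**Figure D3:**
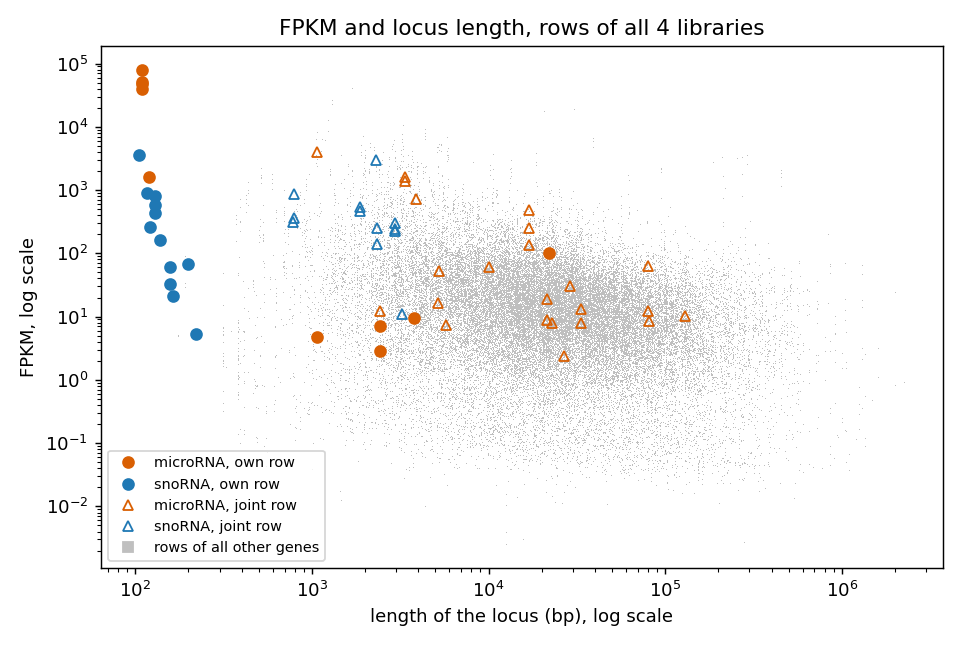
FPKM against the length of the locus (bp), both on log scales, for every row of the 4 libraries, with microRNA and snoRNA rows in color and all other rows in grey. The 17 own rows under 300 bp form a steep line at the left edge from 79940 down to 5.26 FPKM, and joint rows (open triangles) lie among the other genes.

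The 21 joint symbols belonged to 20 longer genes, and whether the small RNA was named changed from library to library. The 20 genes and 4 libraries give 80 combinations, of which 77 had a row. The small RNA was in the name in 35, the gene was listed under another name in 42, usually the host alone, and 3 had no row. By whole symbol, 22 of the 36 members were in 1 library, 8 in 2, 5 in 3 and 1 in 4, against 13.5%, 9.58%, 12.2% and 64.8% of all symbols. With rows that share a gene name joined, 17 of the 20 joint genes had a row in all 4 libraries and 3 in 3 libraries.

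Chpf2 showed this most plainly. Its row was named "Mir671,Chpf2" in the library labelled GRK6-/- HSC, at 7.39, and Chpf2 in WT HSC, WT CLP and the library labelled GRK6-/- CLP, at 8.08, 7.20 and 7.51. The locus was the same in length, 5737 bp, in all 4, and the values were close, while the symbol "Mir671,Chpf2" taken by itself was present in 1 library only. Rps21, of the small ribosomal subunit, was 8115 in WT HSC, 3022 in WT CLP and 2302 in the library labelled GRK6-/- CLP, and it was "Mir3091,Rps21" with 4043 in the library labelled GRK6-/- HSC. Read by symbol, it would be among the largest differences between HSC libraries.

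The snoRNA hosts of joint rows had a row in every library, whatever its name. Gas5, which carries many C/D snoRNAs in its introns, was "Mir5117,Gas5" with 1386 in WT HSC and 1593 in the library labelled GRK6-/- HSC, Gas5 with 1351 in WT CLP, and "Mir5117,Gas5,Snord47" with 724 in the library labelled GRK6-/- CLP. Snhg8 had 855 in WT HSC, 442 in the library labelled GRK6-/- HSC, 357 in WT CLP and 307 in the library labelled GRK6-/- CLP, with Snora24 in the name in all but the second. Snhg1 had 305, 314, 221 and 241 in the same order, with Snord22 in the name in all but the second. Snhg12 had 248, 167, 142 and 112, with Snora61 named in both WT libraries. Snhg12 is the one host with different members in both kinds of row, Snora61 in its joint row and Snora44 beside it. Rps2 had 467, 748, 542 and 352, with Snora64 named in both WT libraries.

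Joint microRNA rows sat mostly on protein-coding genes. Epc1, which encodes a subunit of the NuA4 histone acetyltransferase complex, had 8.39, 12.2 and 63.2 as "Mir1893,Epc1" in WT HSC, the library labelled GRK6-/- HSC and WT CLP, and 0.776 as Epc1 in the library labelled GRK6-/- CLP. Fam65a had 22.4 under its own name in WT HSC and 253, 483 and 138 as "Mir1966,Fam65a" in the library labelled GRK6-/- HSC, WT CLP and the library labelled GRK6-/- CLP. Rcan3, a regulator of calcineurin, had 18.9 and 8.86 as "Mir700,Rcan3" in WT HSC and the library labelled GRK6-/- CLP, and 2.93 and 0.221 under its own name in the library labelled GRK6-/- HSC and WT CLP. In these 3 genes the rows that named the microRNA were the higher ones. For Rps21 the row that named the microRNA was below the WT HSC row and above the other 2. BC017158 went the other way, with 2.38 as "Mir3103,BC017158" in WT CLP. Under its own name it had 3.68 in WT HSC and 8.66 in the library labelled GRK6-/- HSC. No count over all joint microRNA genes was made.

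**Figure D4:**
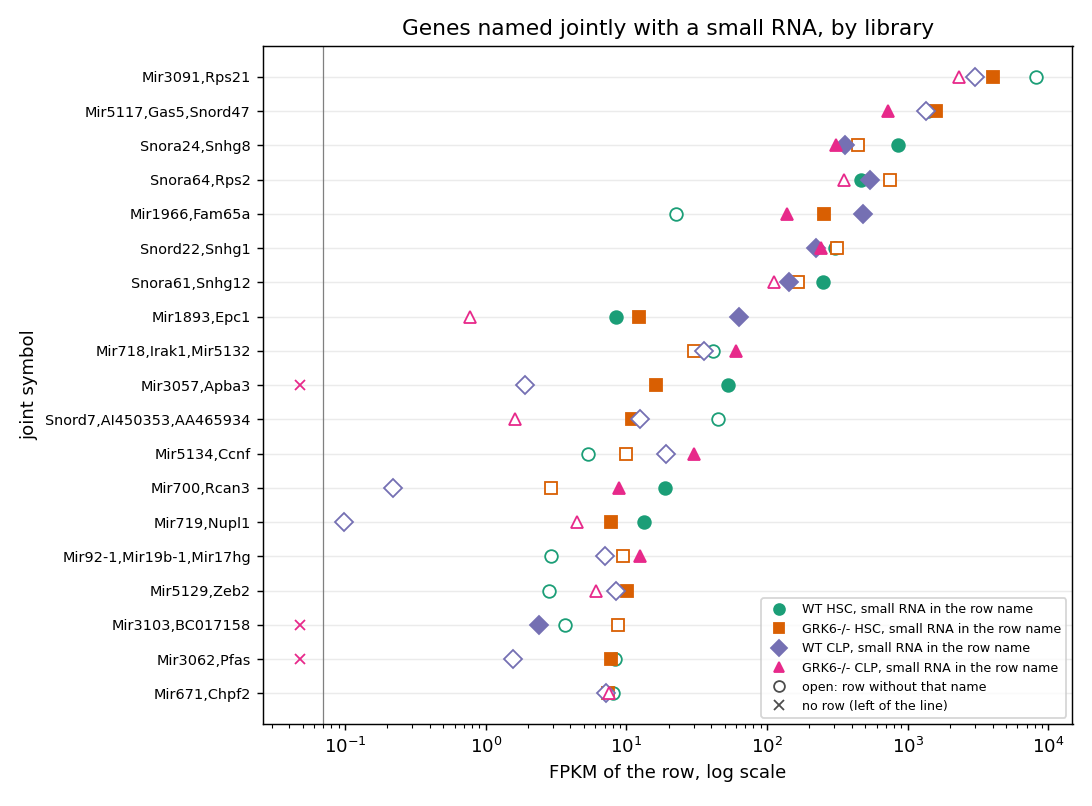
FPKM (log scale) of 19 of the 20 genes that share a row with a microRNA or snoRNA in at least 1 library, filled where the row names the small RNA and open where it does not, with crosses left of the line for no row. Of 76 positions, 34 are filled, 39 are open and 3 are crosses, and Chpf2 (lowest line) shows 4 near-equal values of which 1 is filled.

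Where the small RNA lies in its host differed between the 2 kinds of row. Of the 23 small RNAs named in joint rows, 9 lie within an annotated exon, 9 cross an exon end, 1 lies in an intron, 1 has no longer gene annotated around it and 3 could not be placed in mm9. Of the 14 small RNAs with an own row (Mir17hg being a host itself), 8 lie in an intron, 1 in an intron of a gene on the opposite strand, 4 in an exon and 1 in no longer gene. Exons of any annotated transcript were counted, including transcripts that retain an intron. The split is a description of the rows as listed.

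Whether small RNA rows differed between genotypes was asked first by whole symbol, with no row set to 0 and 1 added to each FPKM. Between the library labelled GRK6-/- HSC and WT HSC, 24 of 28 members were past 2-fold (13 higher and 11 lower), while 38.2% of all 11874 symbols with a row in either library were. Of these 28 members, 22 had a row in 1 of the libraries only, and all 22 were among the 24. Over symbols with a row in both libraries, 2 of 6 members were past 2-fold, against 34.7% of all such symbols. The rows that stood only in the library labelled GRK6-/- HSC included "Mir3091,Rps21", Snora33, Snora44 and Snora70, and those only in WT HSC were led by "Snora24,Snhg8", "Snora64,Rps2", Snora7a, "Snord22,Snhg1" and Snora69. No fold is given for them, since one side is listed at 0.

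With rows that share a gene name joined, 18 of 32 member genes were past 2-fold between the HSC libraries, with 37.5% of all 11764, and among genes with a row in both libraries 8 of 22 were, with 34.8% of all. The latter is near the share of all genes. These 8 were Fam65a (3.44 on the log2 scale, higher in the library labelled GRK6-/- HSC), Zeb2 (1.54), Mir17hg (1.42), BC017158 (1.04), Rps21 (-1.0), Apba3 (-1.65), AA465934 (-1.94) and Rcan3 (-2.34). The median difference of the 22 was -0.02, and that of all genes -0.01.

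Between the library labelled GRK6-/- CLP and WT CLP, 16 of 19 members were past 2-fold by symbol (8 in each direction), while 50.5% of all symbols were. Among symbols with a row in both, 1 of 4 members was, against 44.9% of all. Rows only in the library labelled GRK6-/- CLP were led by Snora70, "Mir5117,Gas5,Snord47", Snora43, "Mir718,Irak1,Mir5132" and Snora78. In WT CLP the leading rows without a counterpart of the same name were Mir1931, "Snora64,Rps2", "Snora61,Snhg12", Mir221 and "Mir1893,Epc1". With names joined, 12 of 26 member genes were past 2-fold, with 49.9% of all, and with a row in both libraries 5 of 19, with 44.9% of all. Those 5 were Rcan3 (3.01, higher in the library labelled GRK6-/- CLP), Nupl1 (2.31), Fam65a (-1.80), AA465934 (-2.38) and Epc1 (-5.18). Nupl1 had only 0.0975 FPKM in WT CLP and 4.46 in the library labelled GRK6-/- CLP. Irak1, a kinase of Toll-like receptor signaling, had 35.7 in WT CLP and 59.8 in the library labelled GRK6-/- CLP, a log2 difference of 0.73.

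The populations were compared in the same way. By symbol, 16 of 20 members were past 2-fold between WT CLP and WT HSC (47.0% of all symbols), and 25 of 27 between the libraries labelled GRK6-/- CLP and GRK6-/- HSC (46.4%). With a row in both libraries these became 3 of 7 (42.9% of all) and 1 of 3 (42.1% of all). With names joined they were 19 of 29 (46.6% of all) and 16 of 28 (45.6% of all), and with names joined and a row in both, 12 of 22 (43.0% of all) and 8 of 20 (42.1% of all). Fam65a (4.37), Epc1 (2.77) and Ccnf (1.68) were higher in WT CLP than in WT HSC, and Apba3 (-4.21), Rcan3 (-4.02) and Nupl1 (-3.71) were lower. The WT CLP value of Nupl1 was only 0.0975 FPKM. These comparisons share libraries with the genotype comparisons.

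**Figure D5:**
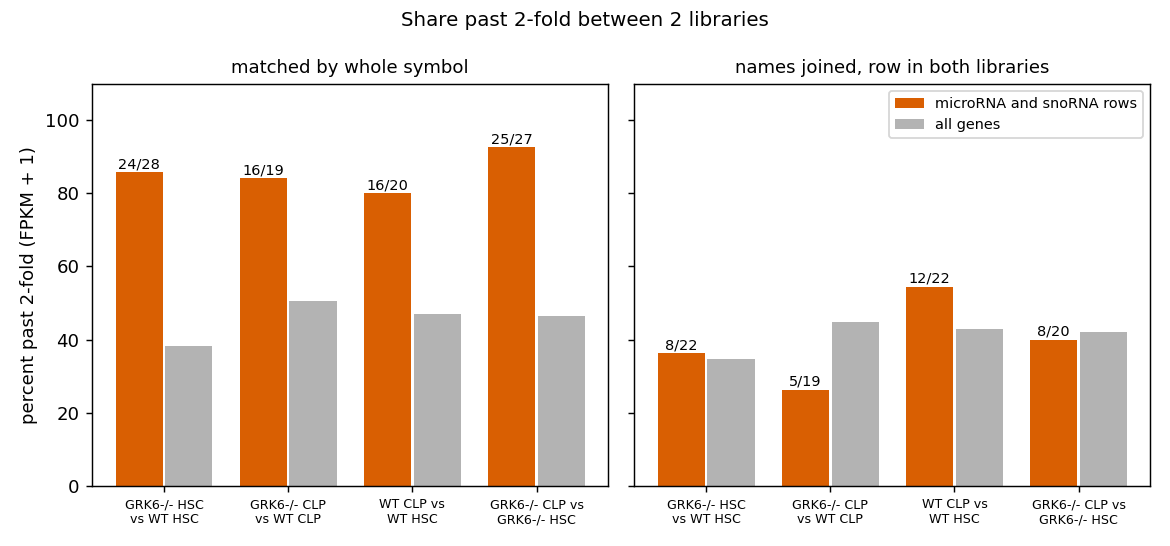
Percent of microRNA and snoRNA rows (orange, with counts) and of all genes (grey) past 2-fold on the FPKM + 1 scale in 4 comparisons of 2 libraries, by whole symbol (left) and with names joined and a row in both libraries (right). The orange bars are between 80.0% and 92.6% on the left and between 26.3% and 54.5% on the right, where grey bars are between 34.8% and 44.9%.

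Genes that make and use these RNAs were read from a list, with the same 2-fold rule and names joined. Of the microRNA processing and effector genes, 14 of 20 names had a row (some names are older names of the same gene). In HSC, 2 of 13 were higher and 3 lower in the library labelled GRK6-/- HSC, or 38.5% beside 37.5% of all genes. Xpo5, the exporter of hairpin precursors, had 7.08 in WT HSC and 23.4 in the library labelled GRK6-/- HSC, and Prkra, a Dicer1 partner, had 6.93 and 71.9. Tnrc6a, Tnrc6b and Tnrc6c, which encode the GW182 partners of Argonaute, had 3.64, 3.84 and 12 in WT HSC, and no row, 1.22 and 3.39 in the library labelled GRK6-/- HSC. In CLP, 6 of 14 were higher and 2 lower in the library labelled GRK6-/- CLP, or 57.1% beside 49.9% of all genes. Drosha, the nuclear enzyme that frees the hairpin, had 10.4 in WT CLP and 192 in the library labelled GRK6-/- CLP, Xpo5 0.367 and 19.9, and Tarbp2, another Dicer1 partner, 46.3 and 3.17. Tnrc6a had 5.14 in WT CLP and 20.8 in the library labelled GRK6-/- CLP, Tnrc6b 1.10 and 6.07, and Prkra 56.5 and 21.0, each in the direction opposite to HSC. Eif2c4, an Argonaute gene, had 0.034 and 5.48, and the helicase gene Ddx17 no row and 8.18. Dicer1 had 4.15, 3.03, 9.16 and 7.91 in WT HSC, the library labelled GRK6-/- HSC, WT CLP and the library labelled GRK6-/- CLP, under 2-fold between genotypes in both populations.

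Of the genes for snoRNP proteins and their assembly, 16 of 17 names had a row. In HSC, 4 of 16 were higher and 2 lower in the library labelled GRK6-/- HSC (37.5%, the same share as all genes), and in CLP 1 was higher and 7 lower in the library labelled GRK6-/- CLP (50.0% beside 49.9%). Dkc1, the pseudouridine synthase of H/ACA particles, had 29.1 in WT HSC, 75.8 in the library labelled GRK6-/- HSC, 12.2 in WT CLP and no row in the library labelled GRK6-/- CLP. Nhp2, another H/ACA core protein, had 91.1, 192, 207 and 99.4 in that order, and Gar1, also of this core, 67.1, 29.5, 35.7 and 34.3. The H/ACA core proteins thus did not move one way between the HSC libraries. Fbl, the methyltransferase of C/D particles, had 63.2, 69.5, 35.0 and 20.3, under 2-fold between genotypes in both populations, and Nop58, its C/D partner, had 33.9, 44.3, 49.1 and 23.7, just past 2-fold in CLP (-1.02). The assembly genes Nufip1 and Ruvbl1 were higher in the library labelled GRK6-/- HSC than in WT HSC (log2 differences of 2.35 and 1.38) and Ruvbl2 was lower (-1.26). In CLP, Nop56, a C/D core protein gene, was higher in the library labelled GRK6-/- CLP (1.17), and Shq1 (-2.95), Tgs1 (-1.56), Pih1d1 (-1.30) and Nufip1 (-1.07) were lower.

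Of the listed snoRNA host transcripts, 26 of 28 names had a row. In HSC, 3 of 26 were higher and 1 lower in the library labelled GRK6-/- HSC (15.4%, beside 37.5% of all genes), and in CLP 2 of 24 were lower and none higher in the library labelled GRK6-/- CLP (8.33%, beside 49.9%). Many are highly expressed genes of the translation machinery, and others are noncoding hosts such as Gas5 and the Snhg genes. No comparison at matched level was made. Npm1, a nucleolar protein gene, had 630 in WT HSC and 1467 in the library labelled GRK6-/- HSC, and Rpl4 had 2208 and 4584. Snhg9 was the one lower, at 26.8 and 11.7, and Snhg11 had a row of 1.78 only in the library labelled GRK6-/- HSC. In CLP, Snhg3 had 48.3 in WT CLP and 14.5 in the library labelled GRK6-/- CLP. Ncl, for nucleolin, had 2704 in WT CLP and between 34.0 and 46.0 in the others. The WT CLP row of Ncl has a locus of 185996 bp that runs on over Ptma, against 14737 to 28011 bp in the other libraries, and Ptma itself had 1131 there and 2306 to 2551 elsewhere.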

How the data were processed

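Per the labels, RNA of sorted mouse bone marrow HSC and CLP was amplified from poly(dT)-primed cDNA, and each of the 4 libraries is 1 group. The authors aligned reads to mm9 with TopHat 1.4.0 and the Tuxedo suite and deposited FPKM per gene and library, with symbol and locus. Other versions, strand setting and the handling of short genes are not given in the sources used here.

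Rows were selected by symbol, and rows of a symbol were summed. Where names were joined, all rows that share a gene name were summed. Log2 ratios of FPKM + 1 with a threshold of 1 (2-fold) were computed in Python 3.11.15 with pandas 2.3.3. File starts count from 0 and were raised by 1. MicroRNAs were placed in mm9 by an exact match of the RefSeq hairpin in or near the row's locus. Those without a match, and snoRNAs, were placed by the GENCODE gene of the same name. Other copies of own loci under 300 bp were sought with blastn 2.17.0+. Scripts were tested on simulated data. With 1 library per group no test was possible. The members and lists were chosen with earlier results of these data known. Genes were named by rule: members in all 4 libraries, the 5 highest per library, the 5 largest differences in each direction per genotype comparison, their hosts, blood microRNAs, and processing genes past 2-fold. Others (Chpf2, Irak1, Ncl, Ptma, Eef1a1 and the remaining genes with own rows) were chosen after their values were seen. Alternatives were other pseudocounts, filters, scaling, thresholds and row matching. One gene that shares a row with a snoRNA is counted but not reported here by name or value.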

Additional observations from a re-analysis of the deposited data

Results flagged for a closer look

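Genes past 2-fold in opposite directions in HSC and CLP were looked for among the 19 member genes with a row in all 4 libraries, with names joined. Fam65a, named with Mir1966, was higher in the library labelled GRK6-/- HSC than in WT HSC (log2 difference of 3.44) and lower in the library labelled GRK6-/- CLP than in WT CLP (-1.80). Rcan3, named with Mir700, went the other way, at -2.34 in HSC and 3.01 in CLP. Neither difference between populations was tested, since each group is 1 library. Opposite signs of any size were seen in 12 of the 19 genes (63.2%), and in 50.4% of all 8369 genes with a row in all 4 libraries. Snhg7 is counted among the 12. Its joined value in the library labelled GRK6-/- CLP, 277, adds the rows of Snhg7 (116) and Snora43 (161). The Snhg7 row alone lay below the 174 of WT CLP, the same direction as in HSC.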

How the results depend on the processing

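No paired analysis was possible because each group holds 1 library, and for the same reason no replicate could be left out. Counts of members past 2-fold by symbol stayed within 1.5 times under pseudocounts of 0.1 and 10, a floor of 1 FPKM, rescaling, a log2 threshold of 2 and the highest row per symbol. With only genes with a row in both libraries, they were 2 and 1 for the HSC and CLP genotype comparisons, and 3 and 1 for the WT and GRK6-/- population comparisons. With rows that share a gene name joined, a choice made after seeing the data, 25 became 16 in the last of these, and the numbers of members in 1, 2, 3 and 4 libraries became 10, 2, 3 and 19. Over the 3 lists together (microRNA processing, snoRNP and snoRNA host genes), 15 of 55 genes were past 2-fold in HSC and 18 of 54 in CLP, or 27.3% and 33.3% beside 37.5% and 49.9% of all genes. A pseudocount of 10 gave 6 and 11, and a log2 threshold of 2 gave 3 and 8. The correlation of FPKM with locus length was -0.60 over all member rows, -0.47 for microRNA and -0.28 for snoRNA rows, -0.90 for own rows and -0.85 for these without Mir703. That of member and host FPKM was 0.45, and 0.41 with only hosts that had a row wherever the member had one. Under the locus length and depth assumed above, the Snord17 row stood for about 4.41 fragments. The effect of depth on the lowest rows was not tested. Mir703, Snora33, Snora44, Snora70 and Snora81 have other copies of at least 90% identity in mm9, whose part in their rows was not tested. Fewer genes and joined names follow from the construction of the first alternatives; other causes were not tested.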

Other observations

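A further 17 joint symbols (43 rows) name a microRNA or snoRNA after a longer gene and therefore lay outside the rule. Mir21 was named with Vmp1, a vacuole membrane protein gene, in all 4 libraries, at 45.8 in WT HSC, 30.1 in the library labelled GRK6-/- HSC, 180 in WT CLP and 65.5 in the library labelled GRK6-/- CLP. Mir3064 was named with Ddx5, an RNA helicase gene of the Drosha complex, in all 4, at 258, 302, 277 and 396 in the same order. "Rpl13a,Snord33,Mir5121" was listed in 3 libraries at 3582 in WT HSC, 4119 in WT CLP and 2773 in the library labelled GRK6-/- CLP. Over all genes, 153 symbols were joint, and 64.1% of these were found in 1 library only, against 13.5% of all symbols.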
